A study of Mus musculus with 2 samples.

Results

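The small leucine-rich proteoglycans are a family of secreted matrix proteins, and 10 of their genes (Dcn, Bgn, Lum, Fmod, Prelp, Ogn, Kera, Aspn, Omd and Epyc) were followed here in mouse embryonic fibroblasts grown without and with Fgf2. The members were all probes whose platform gene symbol is 1 of these names, which gave 15 probes of 25697 on the array and 10 genes of 16593 named. The family was picked with its differences already known from these same 2 arrays, so its values are given as a description and support no test. Gene expression was measured on 1 Illumina bead array per culture, from total RNA of male-labelled cultures. One culture had no agent (labelled Fgf2-) and the other had Fgf2, or fibroblast growth factor 2, a secreted growth factor that signals through receptor tyrosine kinases (labelled Fgf2+). The title of the series places the cultures in work on a growth factor used when making induced pluripotent stem cells of the mouse. The labels give no dose, duration, mouse strain, embryo age or number of pooled embryos.

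Small leucine-rich proteoglycans carry a short leucine-rich repeat domain that binds collagen, and several of them set the diameter and spacing of collagen fibrils in tendon, skin and cornea. Decorin and biglycan bear chondroitin or dermatan sulphate chains and also bind growth factors such as TGF-beta. Lumican, fibromodulin and keratocan bear keratan sulphate chains, and lumican is needed for a transparent cornea. In fibroblasts decorin and biglycan are typical products of the cells that lay down the interstitial matrix.

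With 1 array per group no value below has a replicate, an error between cultures or a p-value across samples, and a difference is a comparison of these 2 cultures. The design text calls both cultures untreated while the titles and agent labels call 1 of them treated, so each direction rests on the agent label. Among known feedback genes and targets of FGF signalling, chosen after their values were seen, Etv4 was 2.14-fold higher on the array labelled Fgf2. There the brightest probe of Dusp6 was 1.75-fold higher, Spred1 2.21-fold and Etv5 2.0-fold, Etv5 being close to the detection threshold without Fgf2 (p-value 0.0063). Spry4 was detected only on the other array, with close signals of 186.0 without Fgf2 and 163.2 with it (detection p-values 0.0025 and 0.023). Spry2 was detected on neither. The Y-linked genes Eif2s3y (signals of 575.1 and 496.0 without and with Fgf2) and Uty (204.0 and 176.1) were detected on both arrays. Xist, normally silent in male cells, was detected on both as well, with signals of 476.6 and 584.1 at its brighter probe, and whether the cultures mixed cells of both sexes was not tested. The arrays had 10564 and 10262 detected probes. All 11 fibroblast markers with a named probe were detected on both, with summed signals of 60114 without Fgf2 and 50463 with it. Among them Thy1 (-0.11 on the log2 scale) and Vim (0.22) differed least. Col1a1, Col1a2 and Pdgfrb (3 of the 11) were at least 2-fold lower with Fgf2, against 2.52% of all genes detected on both arrays. Pdgfra (1 of the 11) was 2.56-fold higher, where 1.8% of those genes were at least 2-fold higher. Of 4 keratocyte markers (keratocytes are the fibroblasts of the cornea), 0 were detected without Fgf2 and 2 with it. Of all named genes 1.68% were detected only with Fgf2, and nothing is read from a list of 4. None of the other cell types checked had more than 3 of its markers detected on either array. In bulk RNA of this kind, fewer cells of a type and less RNA per cell cannot be told apart.

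The promoters of 4 members are shown. The first 3 belong to genes at least 2-fold lower on the array with Fgf2, Fmod only by its bound under the main processing. The fourth belongs to a gene within 2-fold. The sequences are RefSeq's, build GRCm38.p6, and the table matched 8 of the 10 members by symbol, all but Dcn and Lum. Each is the 250 bases just before the gene's start, read 5′ to 3′ on the gene's strand. The window of Prelp is chr1:133921402-133921651 on the minus strand. That of Ogn is chr13:49607765-49608014, that of Fmod chr1:134037004-134037253 and that of Bgn chrX:73483351-73483600, all 3 on the plus strand. Capitals mark matches to any of 7 motifs searched on both strands.
Prelp: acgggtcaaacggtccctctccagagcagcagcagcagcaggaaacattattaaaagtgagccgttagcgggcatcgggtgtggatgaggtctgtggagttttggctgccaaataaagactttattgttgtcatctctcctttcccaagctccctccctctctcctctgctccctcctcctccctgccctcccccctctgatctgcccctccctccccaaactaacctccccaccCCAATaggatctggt
Ogn: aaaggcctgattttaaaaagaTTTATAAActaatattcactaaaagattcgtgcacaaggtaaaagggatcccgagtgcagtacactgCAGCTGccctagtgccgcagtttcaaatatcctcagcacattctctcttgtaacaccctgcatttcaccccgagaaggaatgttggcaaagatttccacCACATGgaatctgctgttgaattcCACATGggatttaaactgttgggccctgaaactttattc
Fmod: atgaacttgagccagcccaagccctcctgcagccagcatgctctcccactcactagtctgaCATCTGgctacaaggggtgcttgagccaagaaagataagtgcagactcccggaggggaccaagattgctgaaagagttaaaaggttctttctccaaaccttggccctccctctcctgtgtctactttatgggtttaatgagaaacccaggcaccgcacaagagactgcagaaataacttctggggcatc
Bgn: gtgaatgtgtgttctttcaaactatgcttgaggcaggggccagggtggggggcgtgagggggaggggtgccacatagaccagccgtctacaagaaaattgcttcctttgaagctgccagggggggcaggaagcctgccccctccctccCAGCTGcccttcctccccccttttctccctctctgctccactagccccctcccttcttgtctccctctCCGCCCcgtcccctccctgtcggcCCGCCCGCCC

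The motifs were the TATA box (TATAAA), the CCAAT box (CCAAT), the GC box (GGGCGG), the AP-1 site (TGANTCA), a SMAD element (CAGACA), an ETS site (CCGGAA) and the E-box (CANNTG). None of these contains another, although matches can overlap, as the pair of TATA boxes on opposite strands of Ogn and the last pair of GC boxes of Bgn do. Prelp held 1 match, a CCAAT box that ended 11 bases before the start. Ogn held TATA boxes far upstream, the nearer ending 222 bases before the start, and 3 E-boxes, while Fmod held 1 E-box. Bgn held 3 GC boxes within 34 bases of the start and 1 E-box. The window of Bgn was 64.4% G and C, those of Prelp, Fmod and Ogn 55.6%, 51.2% and 42.0%, and the median of all 32851 windows 52.4%. Over the 9 windows of the 8 matched members, with 2 starts for Epyc, 5 members held an E-box, 3 a CCAAT box, 2 a TATA box and 1 a GC box. Of all windows 66.2% held an E-box, 33.8% a CCAAT box, 12.4% a TATA box and 32.7% a GC box. The AP-1 site, SMAD element and ETS site, present in 6.75%, 17.1% and 12.0% of all windows, had no match in the members. No motif searched was present in all of Prelp, Ogn and Fmod, the E-box being in Ogn and Fmod but not Prelp. A match is only a run of letters in this window.

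Across the family, lumican stood higher on the array with Fgf2, PRELP and osteoglycin stood lower, decorin was somewhat higher and biglycan somewhat lower. The threshold for detection was a detection p-value below 0.01, and 5 of the 10 genes (Dcn, Bgn, Lum, Prelp and Ogn) passed it on both arrays by their brightest probe, as did 41.6% of all named genes. Of these, 1 was at least 2-fold higher with Fgf2 (Lum), 2 were at least 2-fold lower (Prelp and Ogn) and 2 lay within 2-fold. The same thresholds were passed by 1.8% of all 6898 such genes on the higher side and by 2.52% on the lower side. These shares are the background of the same contrast the family was picked on, so nothing is read from the comparison. The median difference of the 5 members was -0.44 on the log2 scale, against 0.03 for all genes. Since the members ran from -3.47 to 2.39, that median describes no typical member. Of the 5 members 3 had a difference below 0, as had 45.9% of all genes. A sixth gene, Fmod, was detected only without Fgf2, as were 2.87% of all named genes, and the other 4 (Kera, Aspn, Omd and Epyc) on neither array. No member was detected only with Fgf2, against 1.68% of all named genes.

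**Figure D1:**
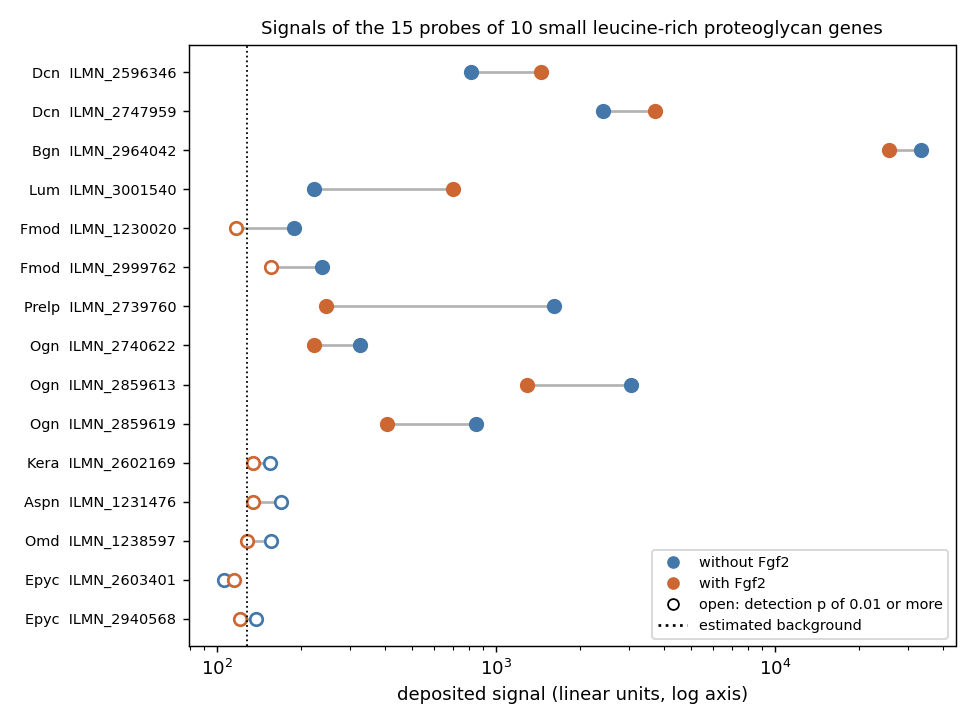
Deposited signals of the 15 member probes on a log axis, with blue for the array without Fgf2 and orange for the array with it. Open points had a detection p-value of 0.01 or more and the dotted line is the mean of the estimated backgrounds. Lum and both probes of Dcn lie further right with Fgf2, while Prelp, all 3 probes of Ogn, both of Fmod and the single probe of Bgn lie further left.

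Lumican, a keratan sulphate proteoglycan of class II of the family that binds collagen fibrils in cornea, skin and tendon, had the highest difference of the family. Its single probe (ILMN_3001540) gave a deposited signal of 222.9 without Fgf2 and 704.5 with it. The signal without Fgf2 was modest above an estimated background of 127.9, although its detection p-value was 0 on both arrays, where the smallest p-value above 0 was 0.001253. After background correction and normalization its level was 6.82 without Fgf2 and 9.20 with it on the log2 scale. That made Lum 5.23-fold higher, and 8 of the 6898 genes had a higher difference. Without background correction it was 3.12-fold higher, and no second probe of Lum exists on the array to set beside it.

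PRELP, another class II protein, has a basic end that binds heparin and heparan sulphate. Its single probe (ILMN_2739760) read 1608 without Fgf2 and 247.2 with it, with a detection p-value of 0 on both arrays. The level went from 10.52 to 7.05 on the log2 scale, a difference of -3.47, which is 11.1-fold lower with Fgf2. Of all genes detected on both arrays 6 had a lower difference. Prelp and Lum, which are relatives within class II, therefore stood near opposite ends of the distribution of all genes. Without background correction Prelp was 6.45-fold lower, and in the authors' deposited table of processed values the difference was -3.72.

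Fibromodulin, a close relative of lumican in class II and a modulator of collagen cross-linking in tendon, was above background only without Fgf2. Its brighter probe (ILMN_2999762) read 237.7 without Fgf2 and 156.2 with it, with detection p-values of 0 and 0.046. The other probe (ILMN_1230020) read 189.3 and 117.5, with detection p-values of 0.0013 and 0.78. Both probes were thus lower with Fgf2, and the dim array gives only a bound, taken against its lowest detected level of 5.99. Under the main processing Fmod was at least 2.00-fold lower by the brighter probe and at least 1.22-fold lower by the other. Without background correction the brighter probe differed by -0.62 on the log2 scale and the other by -0.69, both short of 2-fold. The 2.00-fold bound thus depends on the processing. Of the 477 genes detected only without Fgf2, 7.97% had a bound of at least 2-fold. At a detection p-value below 0.05 the brighter probe counted as detected on both arrays, and Fmod joined Prelp and Ogn among the members at least 2-fold lower.

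Keratocan and osteomodulin, the other class II members, were below detection on both arrays. Kera, a corneal keratan sulphate proteoglycan, read 155.2 without Fgf2 and 134.8 with it, with detection p-values of 0.046 and 0.28. Omd, a proteoglycan of bone matrix, read 156.4 and 128.4, with 0.041 and 0.41. Both signals were nearer to background with Fgf2, but no fold is given for a probe detected on neither array.

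Decorin, the class I proteoglycan that binds type I collagen, was higher with Fgf2 at both of its probes. The brighter one (ILMN_2747959) read 2410 without Fgf2 and 3716 with it, and the other (ILMN_2596346) 817 and 1449. The differences were 0.66 and 0.93 on the log2 scale, a mean of 0.79 ± 0.19 (SD, n = 2 probes). Dcn was therefore 1.58-fold higher by its brightest probe, short of 2-fold, and 350 of the 6898 genes had a higher difference. The pooled SD between probes of 1 gene was 0.22 over 1749 genes with 4102 probes. That spread measures how far probes of a gene disagree within these arrays. It leaves out shifts shared by the probes and variation from culture to culture, so it gives no error for the difference of Dcn from 0.

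Biglycan, the class I relative of decorin, read 33185 without Fgf2 and 25480 with it (ILMN_2964042). The highest signals of any probe were 44248 and 41959, so the probe lay in the upper range of the scanner, and whether signals there respond fully to a change in RNA was not tested. Bgn was 1.35-fold lower with Fgf2, a difference of -0.44, and 788 genes had a lower one. Dcn and Bgn thus lay on opposite sides of 0, each within 2-fold. Asporin, the third class I member and a calcium-binding protein without a glycosaminoglycan chain, read 169.7 without Fgf2 and 134.6 with it. Its detection p-values were 0.0113 and 0.29, so Aspn narrowly missed the threshold without Fgf2.

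Osteoglycin, also called mimecan, is the class III member found in bone, cornea and vessel wall, and all 3 of its probes were lower with Fgf2. The brightest (ILMN_2859613) read 3051 without Fgf2 and 1291 with it. The second (ILMN_2859619) read 848.4 and 406.5, and the dimmest (ILMN_2740622) 325.9 and 222.8. Every detection p-value of Ogn was 0. The differences were -1.35, -1.34 and -1.0, a mean of -1.23 ± 0.20 (SD, n = 3 probes). Ogn was 2.54-fold lower by its brightest probe, and its dimmest probe stood at 2.00-fold. That dimmest probe fell short of 2-fold under some other processing, at -0.58 without background correction and -0.82 with an offset of 50. Epiphycan, the class III proteoglycan of growth plate cartilage, was not detected, and its 2 probes read 106.1 and 138.6 without Fgf2 and 115.6 and 121.3 with it.

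Of the 5 member probes detected on neither array, 4 had a lower signal with Fgf2 than without, and the exception was an Epyc probe. Of all 14676 probes detected on neither array 50.3% had a lower signal with Fgf2. None of the 6 more distant relatives with a named probe (Ecm2, Optc, Chad, Nyx, Podn and Podnl1) was detected on either array. The nearest to detection was Ecm2, an extracellular matrix protein gene, which read 121.0 without Fgf2 and 163.9 with it, at detection p-values of 0.65 and 0.020. Tsku and Chadl, the other 2 relatives, were not analysed here.

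**Figure D2:**
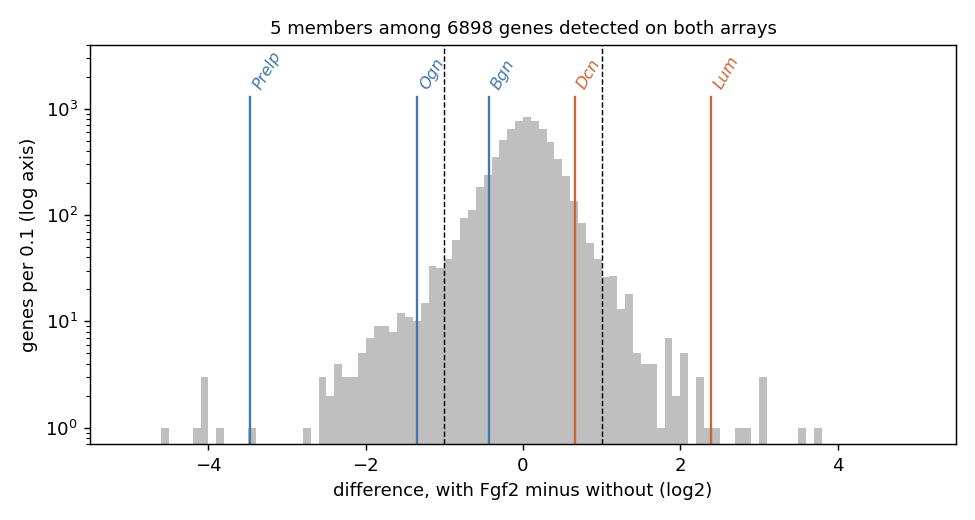
Distribution of differences (with Fgf2 minus without, log2) of the 6898 genes detected on both arrays, with the number of genes per 0.1 on a log axis, dashed lines at 2-fold and coloured lines at the 5 detected members. Lum at 2.39 and Prelp at -3.47 lie in opposite tails and Ogn at -1.35 lies beyond 2-fold. Dcn at 0.66, the 94.9th percentile, and Bgn at -0.44 lie within 2-fold.

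By the measure of likeness available with 2 arrays, the size of the difference, the 3 genes nearest to Lum were Evi2a (2.45), Gap43 (2.28) and Gch1 (2.26). The 3 nearest to Prelp were Chac1 (-3.82), C1qtnf3 (-4.04) and Aldh1l2 (-4.04). Likeness over 2 arrays of 1 pair of cultures is a single number and does not trace a pattern.

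Most of the family lies in 3 clusters of neighbouring genes, as ordered in the RefSeq table. On chromosome 10, in the order Dcn, Lum, Kera and Epyc, the 2 detected members Dcn and Lum were both higher with Fgf2. On chromosome 1, where Optc, Prelp and Fmod follow each other, Prelp was lower. Fmod beside it passed detection only without Fgf2, which by itself puts it on the lower side. On chromosome 13, in the order Ecm2, Aspn, Omd and Ogn, only Ogn was detected, and it was lower. Bgn stands apart on chromosome X. By protein class the signs were mixed: in class I Dcn was higher and Bgn lower, and in class II Lum was higher and Prelp and Fmod lower. This arrangement was noticed after the values were seen and was not tested.

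The nearest 3 genes with a named probe on either side of each locus, also chosen after the members' values were seen, give the setting. Of these 24 flanking genes 11 were detected on both arrays, with differences from -0.93 to 0.62, and 0 of the 11 reached 2-fold. Of all genes only 1.8% were at least 2-fold higher and 2.52% lower, so nothing is read from that count. Differences below 0 were found in 45.9% of all genes. Before the Dcn cluster stood Ube2n, Nudt4 and Btg1, with differences of 0.61, 0.31 and 0.53, which lie on the same side of 0 as Dcn and Lum. Beyond its far end Atp2b1 differed by -0.54 and Poc1b by 0.62. Next to Ogn stood Iars, an isoleucine tRNA synthetase gene, at -0.93, and before the cluster Bicd2, Ippk and Cenpp at -0.29, -0.53 and -0.08. Further beyond Ogn, Fbxw17 differed by 0.09, on the other side of 0. Around Prelp and Fmod only Atp2b4 was detected on both arrays, with a difference of 0.00 beside the -3.47 of Prelp.

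**Figure D3:**
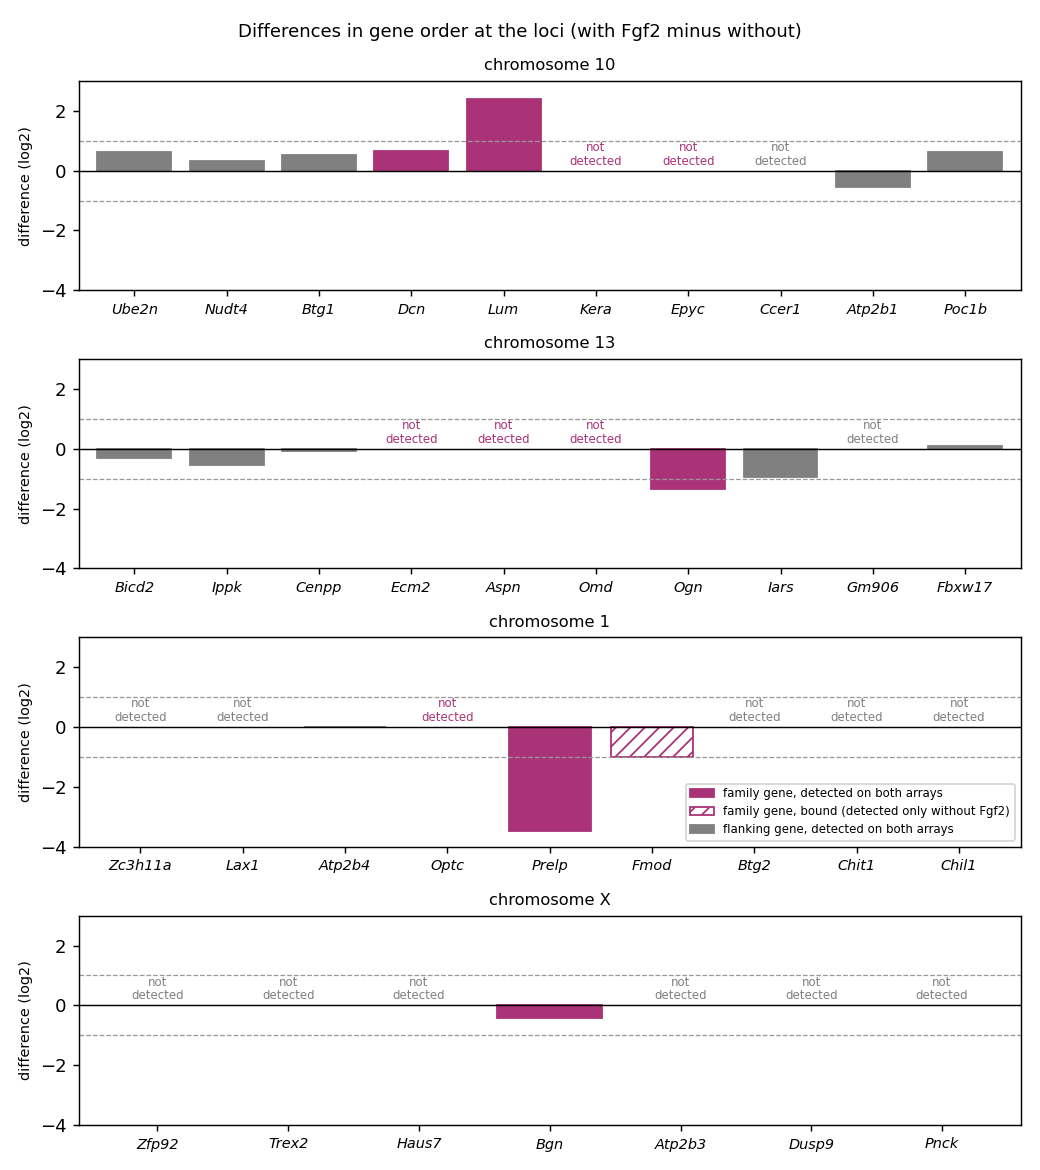
Differences (with Fgf2 minus without, log2) in gene order at the 4 loci, with family genes in purple, the nearest 3 probed genes on each side in grey, and dashed lines at 2-fold. The hatched bar of Fmod is a bound, and genes detected on neither array have no bar. Dcn and Lum are above 0 on chromosome 10, Prelp is below 0 on chromosome 1, and no detected flanking gene reaches 2-fold.

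The collagens that these proteins bind were mostly lower with Fgf2. In a list of fibrillar, fibril-associated and type VI collagens, 9 of 13 genes with a probe passed detection on both arrays. The type VI genes among them were Col6a1 (-0.74) and Col6a2 (-1.11). The difference was below 0 for all 9 (45.9% of all genes), with 6 at least 2-fold lower (2.52% of all genes) and 0 at least 2-fold higher (1.8% of all genes). These shares of all genes apply to each list that follows. The median was -1.28. The genes of type I collagen, which decorin binds, Col1a1 and Col1a2, were 5.76-fold and 3.61-fold lower. Col5a2, a chain of the type V collagen that starts fibrils, was 5.23-fold lower, and Col2a1, of cartilage, 2.64-fold lower. With Fgf2 the signal of Col5a2 was 181.6, close to the threshold (detection p-value 0.0063).

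Enzymes that build the sulphated chains stood closer to 0. Among chondroitin and dermatan sulphate enzymes 11 of 20 were detected on both arrays, with a median of -0.35 and 0 at least 2-fold apart. The greatest differences were those of Chpf, a chondroitin polymerizing factor (-0.77), the sulphotransferase genes Chst7 (-0.74) and Chst14 (-0.47), and B3gat3, which completes the linker (-0.47). The 2 detected probes of B3gat3 disagreed, at -0.47 and 0.21. Xylt2, which starts the chain, was detected only with Fgf2 and was at least 1.96-fold higher there, and Chst11 was detected only without it. On the other array each came close to the threshold, at detection p-values of 0.013 for Xylt2 and 0.015 for Chst11. Among keratan sulphate enzymes 8 of 12 were detected, with a median of -0.00 and 4 on each side of 0. Chst1, which sulphates the galactose of keratan sulphate, was 2.20-fold higher with Fgf2, with signals of 895.3 and 1821. St3gal1, a sialyltransferase, was 1.75-fold higher by its brightest probe, while B4galt4 (-0.64) and Chst2 (-0.38) were lower by less than 2-fold.

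Of the proteases that cleave these proteins or trim collagen, 8 of 14 were detected on both arrays, with a median of -0.33, 1 at least 2-fold lower and 0 higher, against 2.52% and 1.8% of all genes. Adamts5, an aggrecanase, was 3.33-fold lower, and Mmp14, a membrane collagenase, 1.77-fold lower. With Fgf2 the signal of Adamts5 was 180.6, close to the threshold (detection p-value 0.0063). The brightest probe of Mmp13 was 1.57-fold higher and its other probe differed by -0.05 on the log2 scale, and Mmp9 differed by -0.44. Mmp3, or stromelysin, was detected only with Fgf2. Its brightest probe read 153.7 without Fgf2 and 2207 with it, which makes it at least 36.3-fold higher. Its other 2 probes, also detected only with Fgf2, were at least 16.6-fold and at least 20.4-fold higher. Adamts1 was detected only without Fgf2 and was at least 1.74-fold lower with it, where its detection p-value of 0.015 came close to the threshold.

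Ligands and receptors that bind small leucine-rich proteoglycans were spread widely, with 15 of 21 detected on both arrays, a median of -0.64, 7 at least 2-fold lower (2.52% of all genes) and 1 higher (1.8% of all genes). Tgfb2, a TGF-beta ligand, was 4.88-fold lower. The matricellular protein genes Ccn4 and Ccn2 were 4.12-fold and 3.98-fold lower, and Bmp4 3.48-fold lower. The gene that was higher was Cd14, a co-receptor of Toll-like receptors, at 2.99-fold, whose detection p-value without Fgf2, 0.0088, was close to the threshold. Tlr4 was detected only with Fgf2, with a bound of 1.91-fold higher, but came close to the threshold without it (detection p-value 0.014).

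Other proteoglycans, which lack this family's repeat domain, had 12 of 24 genes detected on both arrays, a median of -0.11, 2 at least 2-fold higher and 1 lower, against 1.8% and 2.52% of all genes. Esm1, the dermatan sulphate proteoglycan endocan, was 8.53-fold higher, with a detection p-value without Fgf2 (0.0088) close to the threshold, and Tgfbr3, the TGF-beta co-receptor betaglycan, 2.41-fold higher. Gpc4, a glypican, was 2.55-fold lower, and Sdc2, a syndecan, 1.93-fold lower. Vcan, Gpc6 and Cspg4 were detected only without Fgf2, with bounds of 1.21-fold, 1.52-fold and 1.35-fold lower. Cspg4 narrowly missed the threshold with Fgf2 (detection p-value 0.011).

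**Figure D4:**
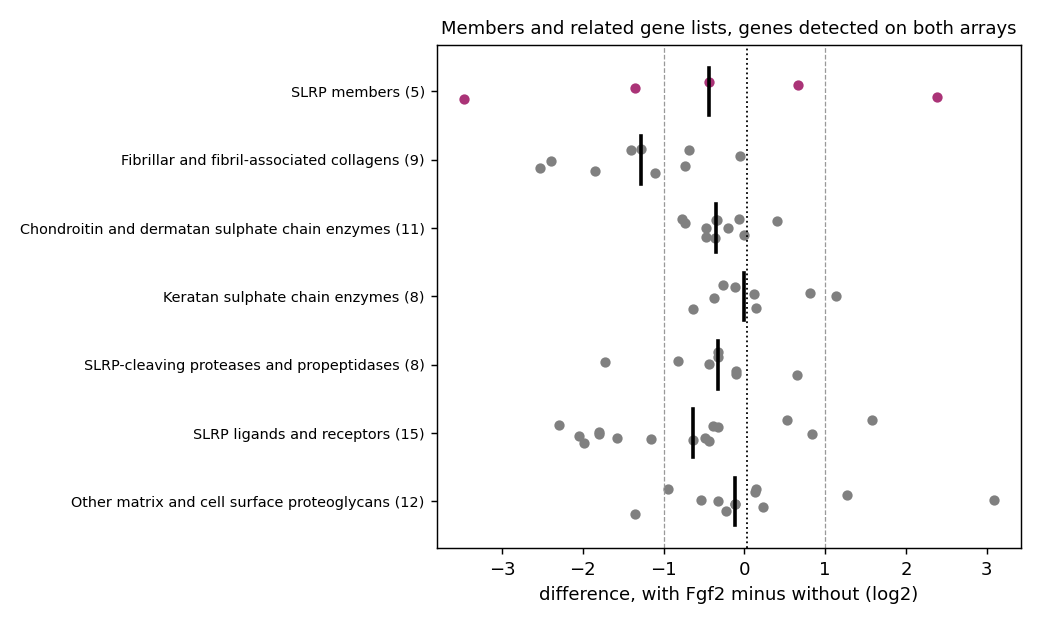
Differences (with Fgf2 minus without, log2) of the family and 6 related lists, where each point is a gene detected on both arrays, the number of genes is in brackets, thick bars are medians, the dotted line is the median of all genes and dashed lines are at 2-fold. The collagen median of -1.28 lies furthest left, and the 5 members span from -3.47 to 2.39.

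Lumican and keratocan are also markers of keratocytes. Of the 4 keratocyte markers fixed for the check, Kera and Chst5 were below detection on both arrays. Aldh3a1, a corneal crystallin enzyme gene, read 133.0 without Fgf2 and 218.9 with it, and Angptl7 read 111.8 and 272.5. Both were detected only with Fgf2, with bounds of 1.79-fold and 2.72-fold higher, and the summed signal of the 4 markers was 523 without Fgf2 and 751 with it. Chondrocyte markers had 2 of 10 genes detected on both arrays, Col2a1 (-1.40) and Sox9 (0.83), with summed signals of 2321 and 1868, and the defining genes Acan and Col9a1 were below detection. Tenocyte markers had Scx detected on both arrays, at -0.33, and Mkx only without Fgf2, with summed signals of 903 and 796. Osteoblast markers had Sp7 on both arrays, at -0.08, and Phex only with Fgf2, with summed signals of 1278 and 1293. Epithelial markers had 2 of 6 genes detected on both arrays, Krt8 (-0.86) and Krt18 (0.36), and Krt14 only without Fgf2, where it read 482.8 against 157.9 and was at least 5.86-fold lower with Fgf2. Their summed signals were 1556 without Fgf2 and 1191 with it, and Cdh1 was below detection. Skeletal muscle markers had 2 of 6 detected on both arrays, Des at 2.14-fold and Acta1 at 1.96-fold lower, with summed signals of 3688 and 2189, and Myod1 and Myog were below detection. The summed signals add deposited values of all probed markers, including those below detection, with no background taken off. Each probe carries an estimated background of 127.9 without Fgf2 and 128.4 with it, so sums over mostly undetected markers are largely background. The part of such cells in the values of Lum, Ogn or Prelp was not tested.

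The direction of each of the 5 detected members was the same under all 8 other ways of computing its value. Lum was between 3.12-fold and 6.02-fold higher, Prelp between 6.45-fold and 13.2-fold lower, and Ogn between 2.35-fold and 2.66-fold lower. Dcn stayed between 1.53-fold and 1.73-fold higher and Bgn between 1.27-fold and 1.36-fold lower. The low end for Lum and for Prelp came from signals with no background correction.

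**Figure D5:**
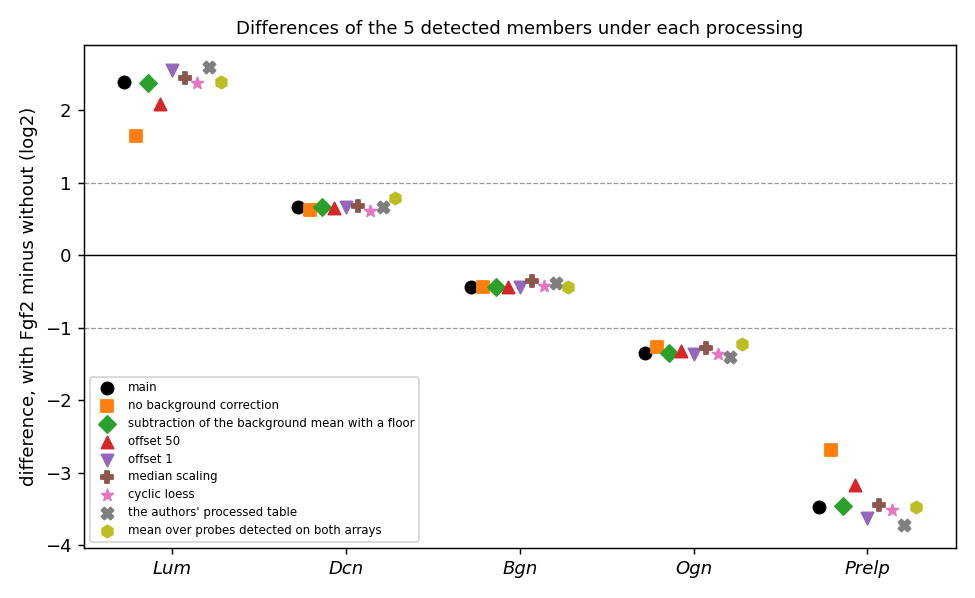
Differences (with Fgf2 minus without, log2) of the 5 detected members under the main processing in black and 8 others in colour, with dashed lines at 2-fold. Lum stays above 1 and Ogn and Prelp below -1 under every one shown, while Dcn and Bgn stay within 2-fold.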

How the data were processed

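Total RNA of 2 cultures, 1 per group by the agent labels, was analysed on 1-colour Illumina bead arrays, from 300 ng of RNA per the labels' protocols. The deposited signals are linear intensity values, and a detection p-value follows each, per the file headers. The authors also deposited a table whose values show it to be on a log2 scale with the same distribution on both arrays, with its background correction not stated. The submitters' processing notes list BeadStudio 3.2, RMA and lumi without roles. Signals were corrected by normexp with the background inferred from the detection p-values (means 127.9 and 128.4), given an offset of 16, quantile normalized and log2-transformed with limma 3.58.1 in R 4.3.3. Later steps used Python 3.11.15, pandas 2.3.3, numpy 2.4.6 and matplotlib 3.10.9. The platform annotation named 23978 probes, and 23962 were matched by Entrez number to RefSeq symbols, with 16 keeping theirs. The probe with the highest mean level stood for a gene, and counts use genes detected on both arrays. A bound was taken against the lowest level of any detected probe on that array (5.87 and 5.99) or the probe's own if higher. No test was run, since 1 array per group leaves no residual degrees of freedom; precision is limited by the number of arrays. The steps were tested on simulated data with known folds at probes of middle signal. That simulation set no fold at signals as dim as those of Fmod or as bright as that of Bgn, and none as large as those of Lum or Prelp. Its background was drawn from the normal model that the correction assumes. It checks the computing steps and gives no error for these cultures. Named genes were all members and relatives, the 4 detected genes with the greatest absolute difference in each list, and the 3 genes nearest to the highest and the lowest member; others were chosen after their values were seen. The members and lists were chosen with earlier results of these data known. Alternatives were other background corrections, offsets, normalizations, detection thresholds, probe summaries and fold thresholds, and the authors' table.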

Additional observations from a re-analysis of the deposited data

How the results depend on the processing

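The members past 2-fold were Lum on the higher side and Prelp and Ogn on the lower side under 9 of 13 alternatives: the 7 other sets of values, the mean over probes, and a detection p-value below 0.001. With a detection p-value below 0.05, or no detection filter, Fmod was added to the lower side. At 1.5-fold the higher members were 2, Dcn and Lum (background 6.76% higher), and at 3-fold the lower members were 1, Prelp (background 0.913% lower). Over all genes, 124 higher and 174 lower became 54 and 108 with no background correction, 236 and 286 with no detection filter, 466 and 500 at 1.5-fold, and 31 and 63 at 3-fold. A detection p-value below 0.001 left 81 higher. No sign of a detected member probe reversed. Of 105 probe values under the 7 other sets of values, 70 moved by less than the pooled SD between probes and 35 by more, 28 of them at probes not detected on both arrays, where signal over background limits the size of a difference. No paired analysis was possible because each group holds 1 array and there is no residual degree of freedom.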
